A study of Homo sapiens with 8 samples.

Results

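The replacement histone variants are the histone genes whose RNA carries a poly(A) tail and is made throughout the cell cycle, together with the centromeric histone gene CENPA. 9 genes were chosen by symbol from the count table, H2AZ1, H2AZ2, H3-3A, H3-3B, H1-10, H2AX, MACROH2A1, MACROH2A2 and CENPA, of 60676 gene identifiers in all, by a rule that uses no measured value. On the reference genome each of the 9 lies on a different chromosome. All 9 passed the filter on low counts that left 16680 genes tested. The libraries came from IGR-N91, a human stage 4 neuroblastoma (NB) cell line and the only line sequenced, grown as hanging-drop aggregates. Control aggregates received complete medium that had held no tissue, and the others received medium conditioned by chick embryo sympathetic ganglia (E8-cSGcm, embryonic day 8), by chick dorsal root ganglia (E8-cDRGcm, embryonic day 8) or by mouse embryo sympathetic ganglia (E15.5-mSGcm, the label giving the embryonic day). The time in medium is given as 20 h in the sample labels and 24 h in the series design. Each conditioned medium came from the ganglia of several pooled embryos. Each medium had 2 libraries, which the study describes as duplicates. Its general statement is that measurements came from different samples, and whether the duplicates were separate cultures is not given in the sources used here, so p-values measure the spread between these libraries, which may be technical.

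Most histone protein is made in S phase from clustered genes whose RNA ends in a stem loop instead of a poly(A) tail. Replacement variants are made at other times and exchanged into nucleosomes away from the replication fork, H2A.Z and H3.3 mostly at active promoters and enhancers, macroH2A over silent chromatin, H2AX across the genome as the substrate of DNA damage kinases, and CENP-A at centromeres after mitosis. H1-10 encodes H1.10, also called H1x, a linker histone that binds the DNA entering and leaving the nucleosome. The H2AX gene yields RNA of both kinds, with a stem loop or with a poly(A) tail. Libraries of total RNA hold both and the gene counts cannot separate them, nor can they separate the splice forms of MACROH2A1.

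The libraries held 7930765 to 15060744 counted reads, and the 2 E15.5-mSGcm libraries were the shallowest, at 7930765 and 8937397 reads. CENPA, the least expressed member, had 43 to 190 reads per library and each other member at least 279. The NB identity of the cells was checked on noradrenergic markers: MYCN had 21103 to 70102 reads per library, while CHGA, which encodes chromogranin A, was at 0 in every library. How reads that map to several places were counted is not given in the sources used here, so a 0 or a few reads, here and for DAXX and MDC1 further on, do not show that the RNA was absent. Of 9 markers of other cell types, the glial gene SOX10 was at 0 in every library, the leukocyte gene PTPRC reached at most 1 read and ALB at most 3. COL1A1, a fibroblast collagen gene, had 249 reads in each E15.5-mSGcm library and 1296 to 2021 in the other libraries, and made up most of the summed level of these markers, which was 101 to 114 CPM in control, 138 to 158 in E8-cSGcm, 144 to 153 in E8-cDRGcm and 31.3 to 34.6 in E15.5-mSGcm. COL3A1, the other fibroblast collagen gene among these markers, was not lower in E15.5-mSGcm. In edgeR with offsets for GC content and length, described below, its log2 difference there was 0.77 from control (adjusted p = 0.191). It was 1.24 from E8-cSGcm (adjusted p = 0.033) and 1.49 from E8-cDRGcm (adjusted p = 0.0121). The part of these markers in the results below was not tested.

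The table of reference promoters from RefSeq (GRCh38.p14) held windows for all 9 members. The following 250 bases before the annotated start are shown, 5′ to 3′, for H1-10, H2AX and CENPA, the members that changed most, and for H2AZ1, which differs from H2AZ2 in its response. Capitals mark 3 motifs, searched on both strands and found without overlap. The first, TATAAA, is the TATA box, which reads as TTTATA on the other strand. The next, CCAAT, is bound by the factor NF-Y and reads as ATTGG on the other strand. The motif TTTGAA, the core of an element in many genes expressed late in the cell cycle, has an other-strand form of TTCAAA.
H1-10: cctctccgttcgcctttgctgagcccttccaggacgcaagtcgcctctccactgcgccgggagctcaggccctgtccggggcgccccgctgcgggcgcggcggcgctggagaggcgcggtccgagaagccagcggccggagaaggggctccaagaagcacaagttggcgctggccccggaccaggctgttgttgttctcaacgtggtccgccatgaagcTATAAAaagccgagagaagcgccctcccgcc
H2AX: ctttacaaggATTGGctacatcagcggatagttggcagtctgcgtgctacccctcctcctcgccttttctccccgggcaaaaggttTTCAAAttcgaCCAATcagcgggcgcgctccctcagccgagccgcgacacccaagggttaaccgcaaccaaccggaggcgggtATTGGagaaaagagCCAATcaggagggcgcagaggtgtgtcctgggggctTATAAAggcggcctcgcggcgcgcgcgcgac
CENPA: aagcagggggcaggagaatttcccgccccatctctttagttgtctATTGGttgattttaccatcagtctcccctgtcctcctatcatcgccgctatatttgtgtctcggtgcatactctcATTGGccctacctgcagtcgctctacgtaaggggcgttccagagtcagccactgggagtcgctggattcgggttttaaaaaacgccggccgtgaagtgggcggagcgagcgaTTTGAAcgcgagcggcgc
H2AZ1: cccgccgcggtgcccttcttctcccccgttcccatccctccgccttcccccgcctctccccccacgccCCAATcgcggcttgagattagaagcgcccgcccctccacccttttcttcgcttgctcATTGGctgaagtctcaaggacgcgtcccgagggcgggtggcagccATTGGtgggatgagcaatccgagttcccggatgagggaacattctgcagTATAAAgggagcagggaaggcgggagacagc
The windows lie on the reverse strand at chr3:129316287-129316536 (H1-10), chr11:119095466-119095715 (H2AX) and chr4:99950276-99950525 (H2AZ1), and on the forward strand at chr2:26785806-26786055 (CENPA). TATAAA began 31 bases before the start in H1-10, H2AX and H2AZ1 and 29 bases before it in H3-3B. None of the windows of the other 5 members held it, and 10.7% of 35116 promoter windows of this length did. CCAAT, on either strand, occurred 4 times in H2AX, 4 times in H2AZ2, 4 times in H3-3B, 3 times in H2AZ1 and 2 times in CENPA, and was not in the H1-10 or MACROH2A2 window. It occurred 1 time in each of 3 of the 4 windows of H3-3A and 2 times in 1 of the 2 windows of MACROH2A1, against at least 1 match in 32% of all windows. TTTGAA was found in CENPA, 18 bases before the start, and in H2AX, 164 bases before it on the opposite strand, and 13.3% of all windows held it. No motif of these 3 was in all of H1-10, H2AX and CENPA. H1-10 and H2AX shared TATAAA, and H2AX and CENPA shared CCAAT and TTTGAA. The part of these motifs in the changes that follow was not tested.

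Levels were compared between genes per kilobase of exon, as TMM-scaled reads relative to library size (CPM) divided by the union of annotated exons. In control aggregates H1-10 had the highest level, 234 CPM per kb. H2AZ1 followed with 109, H2AX with 69.8 and H3-3B with 56.2 CPM per kb. H2AZ2 and MACROH2A1 were at 18.7 and 17 CPM per kb, H3-3A at 8.98, MACROH2A2 at 7.76 and CENPA at 4.18. Rarely used exons enter the union and lower such values, so the order of close neighbours such as H2AZ2 and MACROH2A1 is not firm. Reads that H2AZ1, H2AZ2, H3-3A and H3-3B share with pseudogenes may also be missing from their levels, as the counting of such reads is not given. Together the 9 genes took 0.168% and 0.163% of all counts in control libraries, 0.172% and 0.182% in E8-cSGcm, 0.188% and 0.193% in E8-cDRGcm, and 0.14% and 0.135% in E15.5-mSGcm. The E8-cDRGcm libraries were highest and the E15.5-mSGcm libraries lowest, with no overlap between media. The sum does not show members moving together. H1-10 had a mean of 354 CPM in control, 553 in E8-cDRGcm and 204 in E15.5-mSGcm, while MACROH2A1 had 289, 234 and 269. How often other sets of genes separate the media in this way was not counted.

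**Figure D1:**
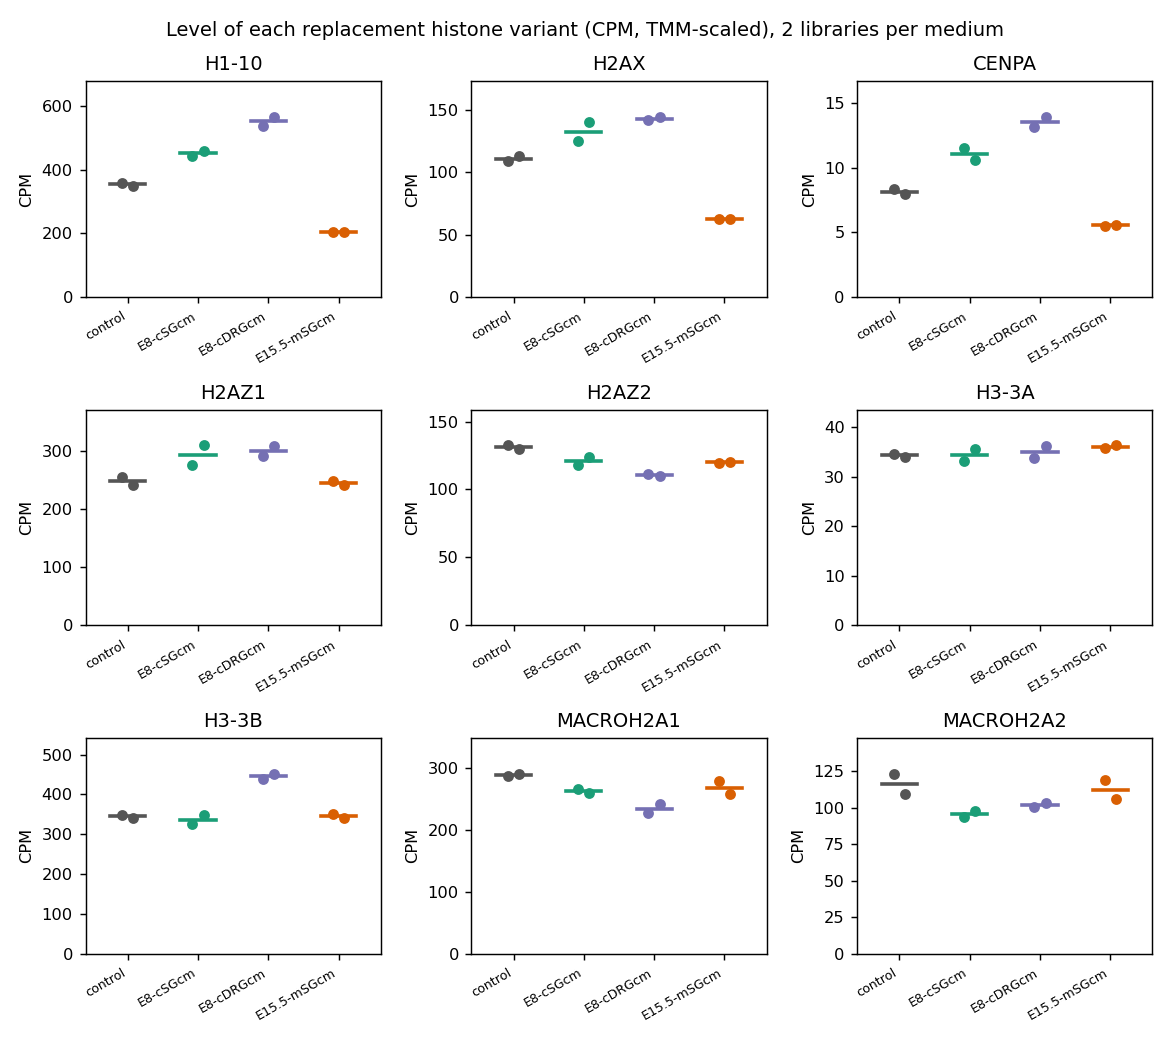
TMM-scaled CPM (y axis from 0) of each of the 9 variants in each of the 4 media (x axis), with 1 point per library and a line at the mean of the 2 libraries. In H1-10, H2AX and CENPA both E15.5-mSGcm libraries lie below both control libraries and all chick-medium libraries lie above them.

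Against control medium, members were followed in the 3 conditioned media with edgeR's quasi-likelihood test in 1 model of all 8 libraries. A gene is said here to have risen or fallen at a Benjamini-Hochberg adjusted p under 0.05 over all 16680 genes, and is called where the fold change also reached 1.5. The 3 comparisons share their control libraries. In E8-cSGcm no member was called by edgeR or by DESeq2, although 7 had an unadjusted p under 0.05, where 4.73% of all tested genes were called higher and 3.86% lower. By adjusted p alone 4 members rose and 2 fell in that medium (16.1% of all genes rose and 15.2% fell). In E8-cDRGcm 2 members, H1-10 and CENPA, were called higher and none lower (9.81% and 10.9% of all genes), while 5 rose and 3 fell by adjusted p alone (24.8% and 24.7%). In E15.5-mSGcm 2 members, H1-10 and H2AX, were called lower and none higher (7.27% and 6.65%), and by adjusted p alone 3 fell and none rose (20% and 17.8%). The median log2 fold change of the 9 members was 0.01 in E8-cSGcm, 0.27 in E8-cDRGcm and -0.11 in E15.5-mSGcm, and that of all tested genes was 0.01, 0.01 and -0.015.

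H1-10, the linker histone gene, was the most abundant member and rose in both chick media while it fell in the mouse medium. Its level was 359.8 and 349.1 CPM in the control libraries, 443.3 and 460.4 in E8-cSGcm, 538.8 and 566.5 in E8-cDRGcm, and 205.4 and 202.8 in E15.5-mSGcm. No 2 media overlapped, and E8-cDRGcm was highest. The log2 fold change against control was 0.35 ± 0.05 (SE) in E8-cSGcm (adjusted p = 3.17e-07), 0.64 ± 0.05 in E8-cDRGcm (adjusted p = 4.78e-14) and -0.80 ± 0.05 in E15.5-mSGcm (adjusted p = 1.65e-15). Its transcripts have a GC content of 68.6%. The 177 other tested genes within 2 points of that value had a median log2 fold change of 0.12 in E8-cSGcm, -0.02 in E8-cDRGcm and -0.31 in E15.5-mSGcm. With offsets for GC content and length fitted in each library, the change of H1-10 was 0.185, 0.577 and -0.484 on the log2 scale, with adjusted p = 0.0014, 1.3e-14 and 5.44e-11, so that the directions remained and both calls at 1.5-fold were lost.

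H2AX, whose protein is phosphorylated around DNA breaks, showed the same order. It stood at 109.1 and 113 CPM in control libraries, 125.3 and 140 in E8-cSGcm, 141.8 and 144.4 in E8-cDRGcm, and 62.13 and 62.6 in E15.5-mSGcm. The mouse medium gave the lowest values, and the 2 chick media, whose libraries did not overlap with control, lay close to each other. The log2 fold change was 0.26 ± 0.06 (SE) in E8-cSGcm (adjusted p = 6.05e-04), 0.36 ± 0.06 in E8-cDRGcm (adjusted p = 1.47e-06) and -0.83 ± 0.07 in E15.5-mSGcm (adjusted p = 6.77e-13). H2AX transcripts have a GC content of 67%, and the 336 tested genes within 2 points had a median log2 fold change of 0.12, 0.02 and -0.28 in the 3 media. With the GC and length offsets H2AX no longer passed the test in E8-cSGcm (log2 fold change 0.11, adjusted p = 0.145), nor did it without E8-cSGcm replicate 2 (0.17, adjusted p = 0.0546), and its change in E15.5-mSGcm was -0.55 (adjusted p = 3.19e-09), under 1.5-fold.

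CENPA encodes the histone H3 of centromeric nucleosomes. It was measured at 8.334 and 7.957 CPM in control libraries, 11.55 and 10.57 in E8-cSGcm, 13.16 and 13.92 in E8-cDRGcm, and 5.509 and 5.598 in E15.5-mSGcm. As for H1-10, the media did not overlap. The log2 fold change was 0.44 ± 0.14 (SE) in E8-cSGcm (adjusted p = 0.0156), 0.73 ± 0.14 in E8-cDRGcm (adjusted p = 2.43e-05) and -0.55 ± 0.18 in E15.5-mSGcm (adjusted p = 0.0155). Its transcripts have a GC content of 49.3%, and with the offsets the 3 changes were 0.41, 0.74 and -0.60 on the log2 scale. The smaller changes depended on the tool and on single libraries. DESeq2 gave an adjusted p of 0.161 in E8-cSGcm and 0.103 in E15.5-mSGcm, and 0.00392 in E8-cDRGcm. In edgeR the adjusted p rose to 0.114 in E8-cSGcm without control replicate 2 and to 0.101 without E8-cSGcm replicate 1, and to 0.0622, 0.0722 and 0.0798 in E15.5-mSGcm without control replicate 1, E15.5-mSGcm replicate 1 and E15.5-mSGcm replicate 2.

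**Figure D2:**
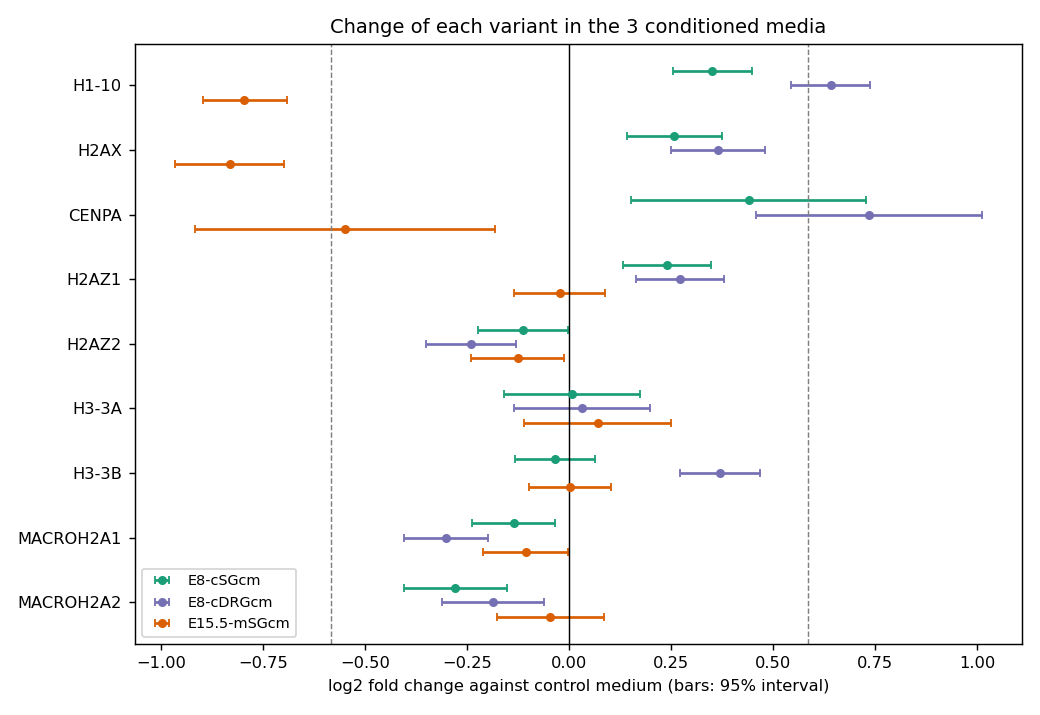
Log2 fold change of each of the 9 variants (y axis) against control medium (x axis), 1 colour per conditioned medium, with 95% intervals derived from the F statistic of the edgeR test. Dashed lines mark 1.5-fold. H1-10 and CENPA lie beyond the right line in E8-cDRGcm and H1-10 and H2AX beyond the left line in E15.5-mSGcm.

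The H2A.Z pair, whose proteins mark nucleosomes at promoters, diverged. H2AZ1 had 255.5 and 240.8 CPM in control libraries, 276.2 and 309.4 in E8-cSGcm, 290.9 and 308 in E8-cDRGcm, and 247.5 and 240.6 in E15.5-mSGcm. The chick media were above control and the mouse medium overlapped with it. H2AZ1 rose in E8-cSGcm by 0.24 ± 0.05 (SE) on the log2 scale (adjusted p = 5.74e-04) and in E8-cDRGcm by 0.27 ± 0.05 (adjusted p = 5.34e-05), both under 1.5-fold, and its log2 fold change in E15.5-mSGcm was -0.02 (95% interval -0.136 to 0.088, adjusted p = 0.775). Without E8-cSGcm replicate 2 the rise in E8-cSGcm was 0.156 and missed the threshold (adjusted p = 0.0546). H2AZ2 had 132.4 and 129.7 CPM in control libraries, 118.3 and 123.7 in E8-cSGcm, 111.7 and 109.9 in E8-cDRGcm, and 119.4 and 120.5 in E15.5-mSGcm. All conditioned media lay below control, with E8-cDRGcm lowest. H2AZ2 passed the test in E8-cDRGcm, at a log2 fold change of -0.24 ± 0.05 (SE, adjusted p = 3.25e-04), and not in E8-cSGcm (-0.11, adjusted p = 0.109) or E15.5-mSGcm (-0.13, adjusted p = 0.0765; with GC and length offsets -0.22, adjusted p = 0.00222). The ratio of H2AZ1 to H2AZ2 in CPM, not divided by length, was 1.93 and 1.86 in control libraries, 2.33 and 2.5 in E8-cSGcm, 2.6 and 2.8 in E8-cDRGcm, and 2.07 and 2 in E15.5-mSGcm. H2AZ1 shares sequence with processed pseudogenes, of which H2AZP2 and H2AZP3 held 4889 and 4171 reads over the 8 libraries beside 27000 for H2AZ1. Adding the pseudogene reads left the log2 fold change of H2AZ1 at 0.24, 0.26 and -0.03 in the 3 media.

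The H3.3 pair encodes 1 and the same protein from 2 genes. H3-3B had 348 and 341.8 CPM in control libraries, 324.8 and 348.6 in E8-cSGcm, 439.6 and 451.3 in E8-cDRGcm, and 350.1 and 340.1 in E15.5-mSGcm. The E8-cDRGcm libraries alone stood apart from control. H3-3B rose there by 0.37 ± 0.05 (SE) on the log2 scale (adjusted p = 4.61e-08), under 1.5-fold, and gave -0.03 (adjusted p = 0.648) in E8-cSGcm and 0.00 (95% interval -0.1 to 0.101, adjusted p = 0.993) in E15.5-mSGcm. H3-3A had 33.19 to 36.33 CPM over all 8 libraries. Its log2 fold change was 0.01, 0.03 and 0.07 in the 3 media, with adjusted p = 0.965, 0.784 and 0.58 and 95% intervals reaching from -0.16 to 0.25. The ratio of H3-3B to H3-3A in CPM, not divided by length, was 10 in each control library, 9.79 and 9.76 in E8-cSGcm, 13 and 12.4 in E8-cDRGcm, and 9.8 and 9.36 in E15.5-mSGcm. The pair thus stood furthest apart in E8-cDRGcm. The 2 genes and their 46 listed pseudogenes share sequence, and 612 reads fell on those pseudogenes against 39967 on the 2 genes. How reads that map to several places were counted is not given, so these numbers do not show that no reads were lost. H3-3A and H3-3B may be undercounted to unlike degrees, which would shift their levels and ratio. Summed over the family, the log2 fold change in E8-cDRGcm was 0.34 (adjusted p = 2.81e-07).

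The macroH2A genes encode H2A variants with a large globular tail domain. MACROH2A1 had 287.6 and 290.5 CPM in control libraries, 266.8 and 259.5 in E8-cSGcm, 226.7 and 241.9 in E8-cDRGcm, and 278.5 and 258.5 in E15.5-mSGcm, all conditioned libraries lying below both control libraries. It fell in E8-cDRGcm by 0.30 ± 0.05 (SE) on the log2 scale (adjusted p = 4.49e-06) and in E8-cSGcm by 0.14 ± 0.05 (adjusted p = 0.0369; by DESeq2 0.0839), and gave -0.11 in E15.5-mSGcm (adjusted p = 0.101; with GC and length offsets -0.22, adjusted p = 9.24e-04). The fall in E8-cSGcm missed the threshold without any 1 of the 2 control or 2 E8-cSGcm libraries, with adjusted p = 0.0564 to 0.186. MACROH2A2 had 123.3 and 109.3 CPM in control libraries, 93.57 and 97.68 in E8-cSGcm, 100.3 and 103.7 in E8-cDRGcm, and 119 and 106.2 in E15.5-mSGcm. Its chick-medium libraries were below control and its mouse-medium libraries overlapped with control. It fell in E8-cSGcm by 0.28 ± 0.06 (SE, adjusted p = 5.99e-04) and in E8-cDRGcm by 0.19 ± 0.06 (adjusted p = 0.0114; by DESeq2 0.0812) on the log2 scale, and gave -0.05 (adjusted p = 0.618) in E15.5-mSGcm. Both falls rested on control replicate 1, without which they were -0.189 (adjusted p = 0.0657) and -0.098 (adjusted p = 0.322), and the fall in E8-cDRGcm also missed the threshold without E8-cDRGcm replicate 1 (-0.167, adjusted p = 0.0794).

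The media were then set against each other. Between the mouse and the chick sympathetic media, H1-10, H2AX and CENPA were called lower in E15.5-mSGcm, at log2 differences of -1.15 ± 0.05, -1.09 ± 0.07 and -0.99 ± 0.17 (SE), with adjusted p = 2.63e-20, 1.44e-16 and 1.01e-05. These were 3 of 9 members called lower and 0 called higher, against 12.1% and 10.2% of all genes. Against E8-cDRGcm the same 3 were lower in E15.5-mSGcm, at -1.44 ± 0.05, -1.20 ± 0.07 and -1.28 ± 0.17, with adjusted p = 1.35e-23, 4.28e-18 and 3.35e-08 (13.1% of all genes lower and 13.1% higher). With the GC and length offsets the differences from E8-cSGcm were -0.67, -0.66 and -1.01 and those from E8-cDRGcm were -1.06, -0.86 and -1.33, so that all 6 calls remained. Between the chick media no member was called by either tool, with 5 at an unadjusted p under 0.05 in edgeR and 2.62% of all genes called higher and 4.87% lower in E8-cDRGcm. By adjusted p alone H3-3B was higher in E8-cDRGcm than in E8-cSGcm by 0.40 ± 0.05 on the log2 scale (adjusted p = 3.34e-08), H1-10 was higher by 0.29 ± 0.05 (adjusted p = 8.73e-06) and MACROH2A1 was lower, at -0.17 ± 0.05 (adjusted p = 0.011). The share of all genes passing adjusted p alone between the chick media was not computed. The difference of MACROH2A1 missed the threshold without E8-cSGcm replicate 1 (adjusted p = 0.0644) or E8-cDRGcm replicate 1 (adjusted p = 0.168).

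**Figure D3:**
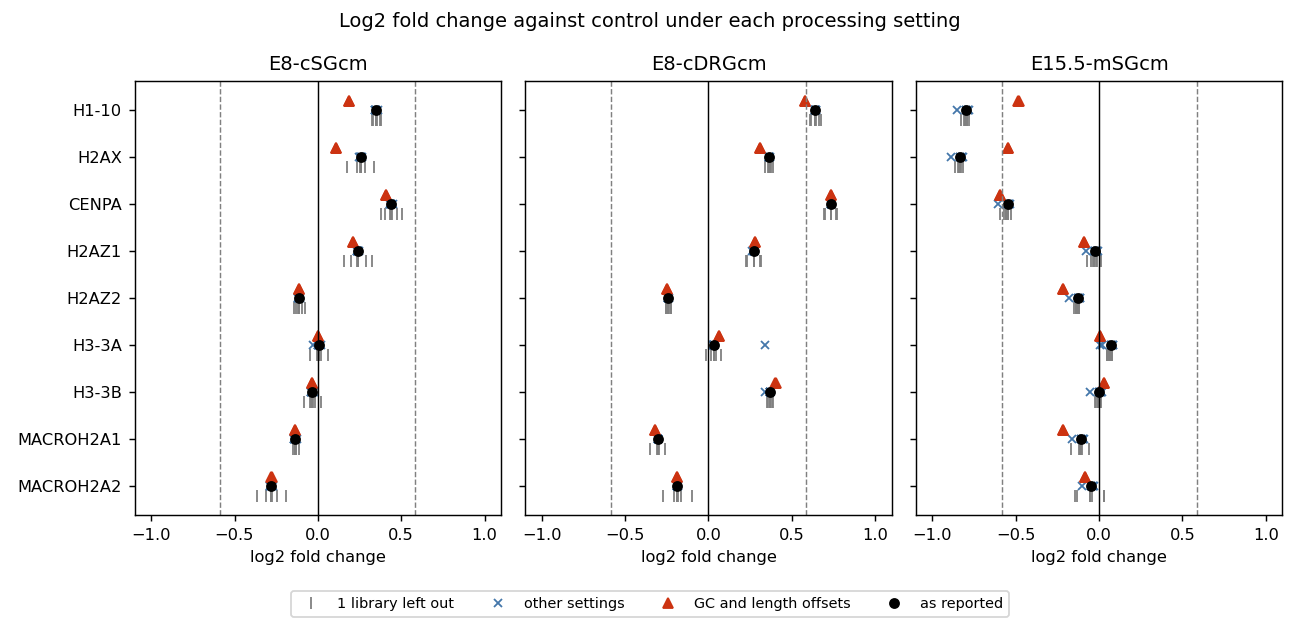
Log2 fold change against control (x axis) of each variant (y axis) in each conditioned medium under each processing setting. Black points are the reported values, red triangles those with GC content and length offsets, ticks those with 1 library left out, and crosses the other settings, among them the sum over the H3.3 family, drawn in the rows of H3-3A and H3-3B. The triangles of H1-10 and H2AX lie nearer 0 than the black points and those of CENPA lie close to them.

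Across the 8 libraries the log2 CPM of H1-10 correlated with that of CENPA at Pearson's r = 0.986 and with that of H2AX at 0.984, and H2AX with CENPA at 0.946. H3-3B and MACROH2A1 correlated at -0.785. These correlations are given as descriptions, over points that share 4 media. Neither they nor those with the nearest genes used the GC and length offsets. How many genes reach such values was not counted, so the shared pattern is not known to be particular to these genes. Of 12366 protein-coding genes, the 2 with the pattern most like H1-10 were MAPK6 (r = 0.9977) and SLC7A5 (r = 0.9976), those most like H2AX were SNAI1 (r = 0.9967) and RPAP1 (r = 0.9957), and those most like CENPA were LTBP4 (r = 0.9948) and SLC7A5 (r = 0.9946).

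H2BC26, an H2B gene outside the 9 members, was left out of the list of replication-dependent (S-phase) histones although its symbol fits their pattern. It was called lower in E15.5-mSGcm, at a log2 fold change of -2.37 (adjusted p = 2.34e-23). In E8-cSGcm it gave -0.07 (adjusted p = 0.417) and in E8-cDRGcm -0.08 (adjusted p = 0.261). The median of the replication-dependent list was -2.35 in E15.5-mSGcm. Which kind of RNA H2BC26 made was not tested.

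Of the 9 genes listed for CENP-A deposition, 1 was called higher and 1 lower in E8-cDRGcm, 1 was called lower in E15.5-mSGcm and none was called in E8-cSGcm by edgeR or DESeq2 (3 had an unadjusted p under 0.05). Of all tested genes, 9.81% were called higher and 10.9% lower in E8-cDRGcm, and 7.27% lower in E15.5-mSGcm. With so few genes, these counts do not show that the list differs from other genes. HJURP, the chaperone that brings CENP-A to centromeres, had 60.86 and 58.33 CPM in control libraries, 85.55 and 80.03 in E8-cSGcm, 124 and 125.3 in E8-cDRGcm, and 32.67 and 33.36 in E15.5-mSGcm. It had the order of CENPA, with log2 fold changes of 0.47 (adjusted p = 2.24e-07), 1.07 (adjusted p = 3.35e-17) and -0.85 (adjusted p = 2.62e-11). OIP5, a subunit of the complex that licenses centromeres for HJURP, was called lower in E8-cDRGcm, at -0.76 (adjusted p = 5.7e-04). The median of the list was 0.11, 0.23 and -0.025 in E8-cSGcm, E8-cDRGcm and E15.5-mSGcm.

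Lists for loading and removing the other variants were counted in the same way. Of all tested genes, 4.73% were called higher and 3.86% lower in E8-cSGcm, 9.81% and 10.9% in E8-cDRGcm, and 6.65% and 7.27% in E15.5-mSGcm. In lists this short, 1 call does not show that a list differs from other genes. Of 13 genes of H2A.Z exchange, ACTR6, an actin-related subunit of the SRCAP complex, was called higher in E8-cSGcm (log2 fold change 0.64, adjusted p = 4.24e-07) and in E8-cDRGcm (0.695, adjusted p = 2.18e-08). INO80, a remodelling ATPase, was called lower in E8-cDRGcm (-0.74, adjusted p = 3.93e-11), and none of the 13 was called in E15.5-mSGcm by edgeR or DESeq2, where 4 had an unadjusted p under 0.05. The medians of the list were 0.145, 0.08 and -0.02 in the 3 media. Of 8 genes of H3.3 deposition 7 were tested, DAXX being left out with 1 to 3 reads per library, and CABIN1, a subunit of the HIRA chaperone complex, was called higher in E8-cDRGcm (0.66, adjusted p = 2.31e-12). No gene of that list was called in the other 2 media by either tool, with 4 at an unadjusted p under 0.05 in each, and the medians were -0.10, -0.01 and 0.14. Of 8 kinases and readers of H2AX 7 were tested, MDC1 being at 0 in every library. None was called in any medium by edgeR or DESeq2, although 1, 3 and 4 had an unadjusted p under 0.05 in E8-cSGcm, E8-cDRGcm and E15.5-mSGcm, with medians of -0.04, 0.01 and -0.012.

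The variants were also set beside cell cycle genes and the replication-dependent histones. By comparison, 4.73% of all tested genes were called higher and 3.86% lower in E8-cSGcm. The shares were 9.81% and 10.9% in E8-cDRGcm and 6.65% and 7.27% in E15.5-mSGcm. Of 15 G2/M genes, none was called by edgeR and 1, MKI67, by DESeq2 in E8-cSGcm (8 had an unadjusted p under 0.05 in edgeR), 5 were called higher in E8-cDRGcm and 1 lower in E15.5-mSGcm, with list medians of 0.18, 0.49 and -0.31. MKI67, the proliferation marker Ki-67, and CDK1, the mitotic kinase, had the largest called changes in E8-cDRGcm, at 0.965 (adjusted p = 0.0203) and 0.86 (adjusted p = 1.83e-15), and CCNA2, cyclin A2, was the gene called in E15.5-mSGcm, at -0.60 (adjusted p = 1.77e-10). Of 15 S-phase genes, none was called in E8-cSGcm by either tool (7 had an unadjusted p under 0.05), 1 was called lower in E8-cDRGcm and 4 were called lower in E15.5-mSGcm, with medians of 0.11, -0.23 and -0.34. MCM3, part of the replicative helicase, was the gene called in E8-cDRGcm (-0.67, adjusted p = 7.16e-13), and RRM2, a ribonucleotide reductase subunit, and CCNE2, cyclin E2, had the largest called changes in E15.5-mSGcm (-0.89, adjusted p = 9.58e-11, and -0.81, adjusted p = 1.79e-04). Of 52 replication-dependent histone genes tested, 2 were called lower in E8-cSGcm, 6 in E8-cDRGcm and 49 in E15.5-mSGcm, and none higher, with medians of -0.09, -0.18 and -2.35. With GC and length offsets 48 were called lower in E15.5-mSGcm. H2AX, which has a stem-loop RNA form, changed by -0.83 there and the other 8 members by -0.80 to 0.07. Whether the fall of H2AX came from its stem-loop form was not tested. In bulk aggregates, fewer cells expressing a gene and less RNA per cell cannot be told apart, and the part of the cell cycle in the changes of the members was not tested.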

How the data were processed

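RNA of 8 libraries of IGR-N91 aggregates, 2 per medium, was analysed. The authors made stranded total RNA libraries from 50 ng of RNA and sequenced them as 75-base single reads. Per the labels, reads passed through bcl2fastq 2.17.1.14, cutadapt 1.9.1, TopHat2 2.1.0 and HTSeq 0.11.3, and the authors deposited raw counts per Ensembl gene, with no normalization. The study's methods name hg19 and the labels' processing notes hg38 (GRCh38). Of the identifiers, 2065 had no position in GENCODE release 44 mapped to GRCh37, and 500 of these had counts, so positions are given for RefSeq on GRCh38.p14 only. The strand setting of the counter is not given in the sources used here.

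Each library was assigned to its medium by its label. Symbols, exon lengths and GC content came from GENCODE. Counts were scaled by TMM and tested in edgeR 4.0.16 (R 4.3.3), with filterByExpr by group and a robust quasi-likelihood fit. That test reports no standard error. The SE given here is the absolute log2 fold change divided by the square root of the F statistic. The 95% intervals were built from this SE and a t quantile. Benjamini-Hochberg adjustment ran over all tested genes, and calls needed an adjusted p under 0.05 and a fold of at least 1.5. Total counts per library, given in the report, set the precision. All 9 members are named. Of each list, at most the 2 largest called changes per medium against control are named, with HJURP given in full in every medium after its values were seen. Results of some genes are not reported here. The nearest genes were ranked by Pearson's r of log2 CPM (prior count 2). Alternatives were DESeq2 1.42.0, RLE size factors, other filters, only the libraries compared, adjusted p alone, a replicate block, GC and length offsets (splines with 5 degrees of freedom), family sums and each library left out. Members, lists and alternatives were chosen with earlier results of these data known. The list of replication-dependent histones was selected by symbol pattern, with H2BC26 left out, and MACROH2A1 splice forms were not analysed here.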

Additional observations from a re-analysis of the deposited data

Results flagged for a closer look

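The changes of 3 members against control medium had opposite signs in the mouse medium and in the chick media, all past the adjusted p in edgeR, and the direct comparison of the media was called. For H1-10 the log2 difference of E15.5-mSGcm was -1.15 from E8-cSGcm and -1.44 from E8-cDRGcm, for H2AX it was -1.09 and -1.2, and for CENPA it was -0.99 and -1.28. With GC content and length offsets these were -0.67 and -1.06, -0.66 and -0.86, and -1.01 and -1.33, still called. Against control, CENPA did not pass in DESeq2 in E8-cSGcm (adjusted p = 0.161) or E15.5-mSGcm (0.103), and H2AX did not pass in E8-cSGcm with the offsets (0.145). All 4 chick-medium libraries were above and both mouse-medium libraries below the control libraries for each of the 3 genes. How many of all tested genes showed this pattern was not counted, so it is not known to be particular to the members. Of all tested genes, 12.1% were called lower in E15.5-mSGcm than in E8-cSGcm and 13.1% lower than in E8-cDRGcm. The mouse-medium libraries were also the shallowest, and depth was not tested as a cause. Species and embryonic day differ together between the sympathetic media and cannot be told apart.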

How the results depend on the processing

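Against control, 27 log2 fold changes of members were recomputed under 441 alternatives in all. Adjusted p alone counted 6 members in E8-cSGcm, 8 in E8-cDRGcm and 3 in E15.5-mSGcm against control. Of all genes, 16.1% rose and 15.2% fell in E8-cSGcm, 24.8% and 24.7% in E8-cDRGcm, and 17.8% and 20% in E15.5-mSGcm. Adjusted p alone also counted 3 members in E8-cDRGcm against E8-cSGcm, 5 in E15.5-mSGcm against E8-cSGcm and 6 in E15.5-mSGcm against E8-cDRGcm. Between media, the share of all genes passing adjusted p alone was not computed. The counts between media therefore do not show whether members passed more often than other genes. With GC content and length offsets, with or without the replicate block, 1 member was called in E8-cDRGcm (CENPA) and 1 in E15.5-mSGcm (CENPA): H1-10 was at 0.577 in E8-cDRGcm and -0.484 in E15.5-mSGcm (-0.483 with the block), H2AX at -0.548 (-0.549 with the block), and CENPA at -0.596. CENPA in E15.5-mSGcm was also called with a filter at 1 count in total (-0.605). Small changes that were never called turned sign: H3-3A in E8-cSGcm was -0.001 with RLE size factors, 0 with offsets and the replicate block and -0.031 summed with its family, and H3-3B in E15.5-mSGcm was -0.055 with the filter at 1 count. The cause was not tested. With each library left out in turn, ranges that crossed 0 were -0.048 to 0.06 (H3-3A, E8-cSGcm), -0.086 to 0.019 (H3-3B, E8-cSGcm), -0.016 to 0.075 (H3-3A, E8-cDRGcm), -0.075 to 0.01 (H2AZ1, E15.5-mSGcm), -0.027 to 0.014 (H3-3B, E15.5-mSGcm) and -0.142 to 0.032 (MACROH2A2, E15.5-mSGcm), and CENPA in E15.5-mSGcm ranged from -0.593 to -0.526, called without control replicate 2. The calls of H1-10, H2AX and CENPA held with each library left out, against control (4 calls) and between media (6 calls). A replicate block was also tried because the labels number replicates. Same-numbered libraries deviated with correlations of -0.0437 to 0.042, so no deviation shared by number was seen. Whether same-numbered libraries were prepared together is not given in the sources used here, and these correlations cannot decide it. The block alone kept 0, 2 and 2 members called against control. Over all genes, DESeq2 called 851 in E8-cSGcm and 696 between the chick media against 1433 and 1249. Apart from calls, the smaller rises and falls of H2AZ1, H2AX, MACROH2A1, MACROH2A2 and CENPA that lost the adjusted p with 1 library left out are given beside their values in the report.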
